A study of Mus musculus with 2 samples.

Results

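Partial chains that keep only the 3' end are spliced transcript models that match the last introns of an annotated transcript but lack its first ones. A model was a member when it belonged to an annotated gene, had at least 2 exons, carried the class incomplete splice match (ISM), and had introns forming the end, but not the beginning, of the intron chain of a GENCODE transcript of the same gene. Over both libraries 22894 such chains were found among 92248 distinct spliced chains of annotated mouse genes. They numbered 15436 of 61369 spliced chains (25.2%) in replicate 1 and 14114 of 58427 (24.2%) in replicate 2. They lay in 6792 genes, of which 6731 were protein coding. The study read RNA of gastrocnemius, a calf muscle, from female B6CASTF1/J hybrid mice aged 18 to 20 months as long reads. It has 1 group with 2 libraries, biological replicates 1 and 2, each from 2 µg of RNA. The labels name no treatment and no genetic alteration, give the same donor record for both libraries and do not say how many animals each came from, so every p-value below measures the difference between these libraries, with counting error only unless a dispersion is named. Replicate 1 held 1175829 reads and replicate 2 held 1017384 reads.

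A messenger RNA is copied from a start site at its 5' end, its introns are cut out between a donor site and an acceptor site that almost always ends in the bases AG, and a poly(A) tail is added at its 3' end. Long-read methods that prime from the tail copy the RNA towards its 5' end. Models that lack the first exons are known both from transcripts made at a start site within a gene and from RNAs that were broken or copied in part, and the models alone do not tell these apart. In muscle, several genes are known to use start sites within the gene, among them Myl1, Ank1, Speg and Dmd, and many genes of the contractile apparatus have very long transcripts.

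The sequences below carry the contrast on which the results turn: a start in a stretch upstream of an exon, starts a few bases inside an exon, and starts on the edge of an exon. The phosphofructokinase gene Pfkm, which makes the muscle form of a controlling enzyme of glycolysis, had the member chain with the most reads in each library. RefSeq places a start of Pfkm at position 98112060 on the plus strand of chromosome 15 (build GRCm38.p6), and the 250 bases before it are chr15:98111810-98112059. The capitals begin at the recorded start of the partial chain, position 98112034, and cover the last 26 bases.
Pfkm: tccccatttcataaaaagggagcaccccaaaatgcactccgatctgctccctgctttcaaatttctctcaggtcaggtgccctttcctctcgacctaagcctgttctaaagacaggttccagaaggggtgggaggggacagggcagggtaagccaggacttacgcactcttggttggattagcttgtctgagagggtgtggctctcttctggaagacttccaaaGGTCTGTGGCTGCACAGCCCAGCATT

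The next 6 sequences are all coding stretches in which both libraries recorded the same start 2 to 5 bases inside an exon with at least 5 reads in each. Each holds the last 30 bases of the exon before and the first 30 of the exon in which the chain starts, read from the GENCODE M21 transcripts. The capitals mark the exon bases that lie before the recorded start. The exons are exon 11 of Mybpc2, fast myosin-binding protein C, whose stretch spans chr7:44516002-44516172 on the minus strand, and exon 5 of Actn3, the actinin of fast fibres, at chr19:4871655-4871800 on the minus strand. They are further exon 9 of the pyruvate kinase gene Pkm at chr9:59672044-59675058, exon 33 of the M-band gene Myom2 at chr8:15125193-15128799, exon 4 of the gelsolin gene Gsn at chr2:35284799-35290362 and exon 3 of the ubiquitin ligase gene Trim63 at chr4:134321249-134323033, all on the plus strand. In each of these stretches the capitals end in AG.
Mybpc2: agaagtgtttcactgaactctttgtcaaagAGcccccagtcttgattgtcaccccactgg
Actn3: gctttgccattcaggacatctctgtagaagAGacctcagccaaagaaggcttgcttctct
Pkm: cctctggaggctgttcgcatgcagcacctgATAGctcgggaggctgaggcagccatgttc
Myom2: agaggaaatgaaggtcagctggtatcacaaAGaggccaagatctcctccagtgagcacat
Gsn: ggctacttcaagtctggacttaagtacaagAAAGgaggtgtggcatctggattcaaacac
Trim63: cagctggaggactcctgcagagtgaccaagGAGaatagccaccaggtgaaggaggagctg

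The last 3 are the coding chains that began exactly on an exon edge, lacked the annotated start codon and held over 50% of a gene's spliced reads where each library had 100 or more of them. The capitals here mark the exon in which the chain starts. Exon 7 of Xirp2, an actin-binding repeat protein of muscle, has its stretch at chr2:67507151-67507938. Exon 3 of Hrc, a calcium-binding protein of the sarcoplasmic reticulum, has its stretch at chr7:45337502-45337916, and exon 7 of Ndufs7, a subunit of respiratory complex I, at chr10:80255107-80255953, all on the plus strand.
Xirp2: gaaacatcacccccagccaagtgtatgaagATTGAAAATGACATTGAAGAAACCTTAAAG
Hrc: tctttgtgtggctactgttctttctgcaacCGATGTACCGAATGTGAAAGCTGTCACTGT
Ndufs7: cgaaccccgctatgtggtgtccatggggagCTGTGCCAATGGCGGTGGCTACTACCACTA

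Partial 3' chains held 83484 of 1042422 spliced reads (8.01%) in replicate 1 and 77632 of 920167 (8.44%) in replicate 2, a mean of 8.22 ± 0.303% (SD, n = 2). The Wilson 95% intervals of these shares were 7.96 to 8.06% in replicate 1 and 8.38 to 8.49% in replicate 2, and they cover counting error only. The members were 77.7% of the spliced ISM chains in replicate 1 and 77.2% in replicate 2. The deposited subtype called 99.1% of them Suffix in each library and the rest Both. Of the chains that the deposited subtype calls Suffix, 2313 in replicate 1 and 2614 in replicate 2 were not members by the rule used here. The defining muscle markers were all detected, 6 of 6 in each library with 16.6% of reads in replicate 1 and 15.9% in replicate 2, while the marker lists of 6 other cell types (fibroblast, endothelium, macrophage, adipocyte, Schwann cell and erythroid) each summed to at most 0.0451% of reads. The cardiac markers Myh6 and Nppa had 0 reads in replicate 1 and 5 in replicate 2.

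Most partial chains were seen once, and a few genes held most of the reads. Of the member chains, 64.3% in replicate 1 and 64.5% in replicate 2 had 1 read, against 59.8% and 60.2% of the other spliced chains in the same libraries. The 771 member chains with at least 10 reads in replicate 1 held 70.0% of the member reads there, and the 816 in replicate 2 held 70.7%. The 20 genes with the most member reads held 50.1% of them in replicate 1 and 50.3% in replicate 2. The fast myosin heavy chain gene Myh4 alone held 12.7% in replicate 1 and 16.8% in replicate 2. The share of the top 20 genes over all spliced reads is not given here, and those reads were concentrated too. The calcium pump gene Atp2a1 alone held 169404 of 1042422 spliced reads in replicate 1 and 186728 of 920167 in replicate 2. Concentration in few genes is therefore not shown to be particular to the partial chains.

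The chains were mostly long remainders. Where several annotated transcripts of the gene fitted a chain, it was set against the one with the fewest introns lost, so losses may be larger against others. The median member had lost 5 introns in each library and kept 6 in replicate 1 and 7 in replicate 2. The median length was 68.5% of that of this annotated transcript in replicate 1 and 71.1% in replicate 2. Exactly 1 intron was lost in 19.9% of the chains in replicate 1 and 19.7% in replicate 2, whereas 11 or more were lost in 23.6% and 24.6% of them. Chains that kept only the last intron made up 11.4% in replicate 1 and 10.6% in replicate 2. The 3' end lay exactly on an annotated end of the gene in 88.4% of the chains in replicate 1 and in 88.6% in replicate 2. The annotated start codon lay in a lost exon in 89.7% of the chains in replicate 1 and 89.6% in replicate 2, with 85.0% and 84.2% of the member reads. It lay in the first kept exon in 6.48% of the chains in replicate 1 and 6.82% in replicate 2.

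The recorded 5' start of a member lay on an annotated exon edge in nearly every case. The deposited annotation gives 1 start for each chain and library, not 1 for each read. In replicate 1, 67.4% of the member chains started exactly on the 5' edge of an annotated later exon, 19.8% on an annotated start of the gene and 7.54% on another annotated exon edge. In replicate 2 these shares were 67.7%, 19.1% and 7.57%. On no annotated edge lay 798 chains (5.17%) in replicate 1 and 793 (5.62%) in replicate 2, and these held 9.01% and 11.2% of the member reads. None of these off-edge chains began 1 base to either side of the exon edge, while 189 in replicate 1 and 199 in replicate 2 began 2 to 5 bases from it. How the models were given their starts is not described in the sources used here, so the recorded position may differ from where each read began.

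**Figure D1:**
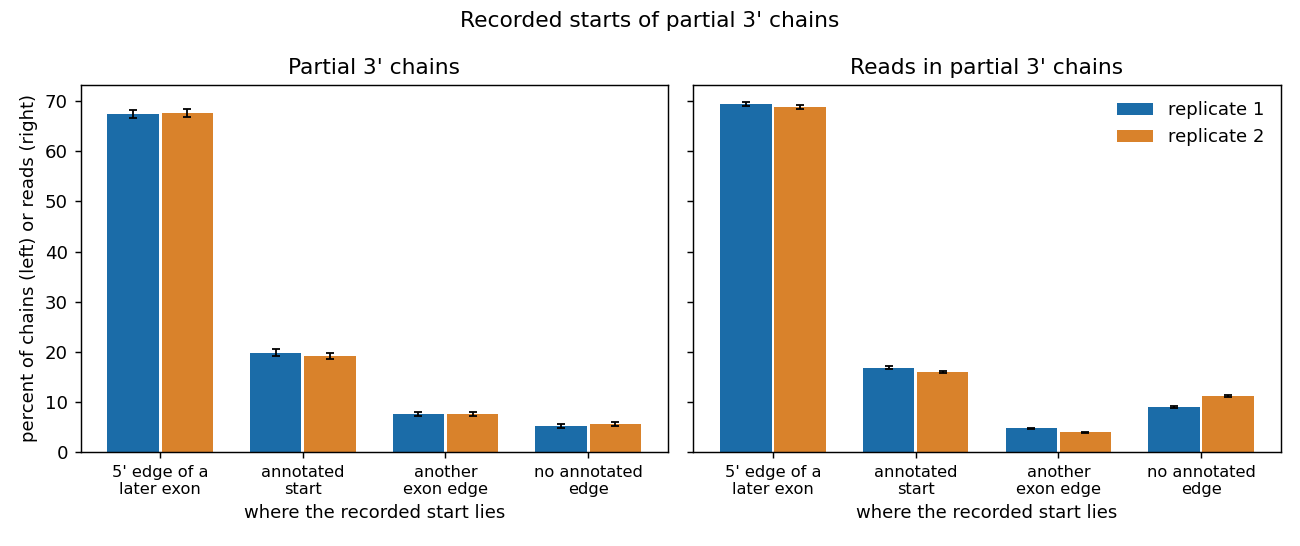
Share of partial 3' chains (left) and of the reads in them (right) by the place of the recorded start, in percent, with Wilson 95% intervals as error bars, for replicate 1 (blue) and replicate 2 (orange). Between 67.4% and 69.4% of chains and reads begin on the 5' edge of a later exon in both libraries.

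Matched by gene and intron chain, 6656 of the 22894 member chains (29.1%) were seen in both libraries, 8780 only in replicate 1 and 7458 only in replicate 2. Sharing followed depth. Of the chains with 1 read, 27.5% of those in replicate 1 and 31.3% of those in replicate 2 were found in the other library, and all 200 chains of replicate 1 and all 171 of replicate 2 with 50 or more reads were. The start of 5620 shared chains (84.4%, interval 83.5 to 85.3%) was repeated within 20 bp, and 5292 of them were identical to the base. Of the identical starts, 5227 (98.8%) lay on an annotated exon edge. The other 1036 shared chains (15.6%) had scattered starts, a median of 191 bp apart.

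Only starts off every annotated edge are free of this overlap with the annotation, and 162 shared chains had such a start in both libraries. Of these, 83 (51.2%, interval 43.6 to 58.8%) were repeated within 20 bp, 65 of them to the base, and 79 were scattered with a median distance of 217 bp. Just inside the window lay a chain of Mars with starts 18 bp apart, and just outside it one of Sptb with 21 bp. The 83 repeated chains held 3831 reads in replicate 1 and 3957 in replicate 2, of which the Pfkm chain made up 2874 and 3245. Within 5 bp of the exon's 5' edge lay 40 of the 83 repeated starts, a distance at which the window of 20 bp counts any pair of starts as repeated. Upstream of the exon in both libraries lay 7 of the repeated and 9 of the scattered starts. A RefSeq start was listed for the gene of 63 repeated chains, and 1 of the 63, Pfkm, lay within 50 bp of one, as did 0 of 55 scattered chains.

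The off-edge starts inside exons mostly followed the bases AG, the letters with which an intron ends. AG came right before 397 of 643 such starts in replicate 1 (61.7%, interval 57.9 to 65.4%) and before 418 of 641 in replicate 2 (65.2%, interval 61.4 to 68.8%). Over all positions of the same transcripts AG made up 8.36% of the pairs of neighbouring bases in each library. Up to 5 bases inside the exon the share of starts after AG was 95.1% (176 of 185) in replicate 1 and 95.9% (186 of 194) in replicate 2, as in the 6 stretches printed above. Over 100 bases inside, it was 18.1% (43 of 237) in replicate 1 and 22.2% (51 of 230) in replicate 2. Repeated starts followed AG in 63 of 76 chains (82.9%) in replicate 1 and 65 of 76 (85.5%) in replicate 2. Of those over 5 bases inside the exon, 22 of 34 (64.7%) did so in replicate 1 and 21 of 32 (65.6%) in replicate 2. Scattered starts did so in 18 of 68 (26.5%) in replicate 1 and 20 of 69 (29.0%) in replicate 2. Among other spliced models with a start of this kind the share was 51.4% (320 of 622) in replicate 1 and 52.2% (356 of 682) in replicate 2, so starts after AG were not restricted to the partial 3' chains.

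**Figure D2:**
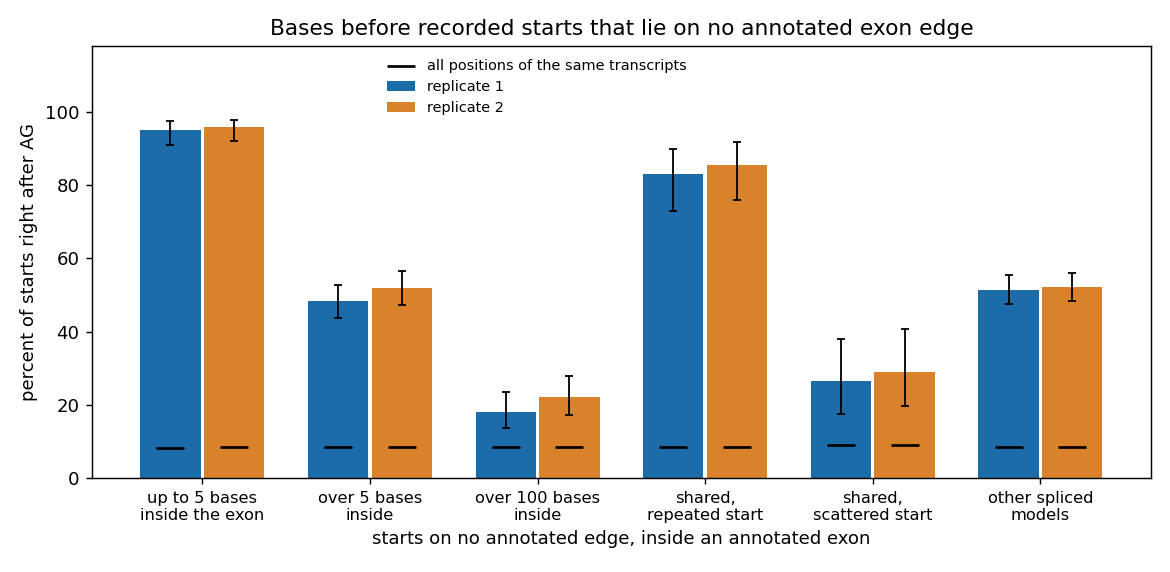
Percent of recorded starts, among those on no annotated edge and inside an annotated exon, that come right after the bases AG, with Wilson 95% intervals, for replicate 1 (blue) and replicate 2 (orange); short black lines give the share over all positions of the same transcripts. Repeated starts, many of them within 5 bases of the edge, sit at 82.9% and 85.5%, scattered starts at 26.5% and 29.0%, and all positions below 9%.

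The same starts often coincided with an acceptor that another spliced model of the gene used. Of all off-edge starts, 400 of 798 (50.1%) in replicate 1 and 407 of 793 (51.3%) in replicate 2 were the first base of a later exon in some model of either library. Among the repeated chains this held for 65 of 83 (78.3%) in replicate 1 and 66 of 83 (79.5%) in replicate 2, and among the scattered ones for 11 of 79 (13.9%) and 16 of 79 (20.3%). The bases GGG came before 2.18% of the starts inside exons in replicate 1 and 3.12% in replicate 2, where they took 1.67% and 1.68% of all positions. All of these starts lay over 100 bases inside the exon, where GGG came before 14 of 237 starts (5.91%) in replicate 1 and 20 of 230 (8.70%) in replicate 2. Among scattered starts inside exons it came before 4 of 68 (5.88%) in replicate 1 and 7 of 69 (10.1%) in replicate 2. The part that splicing or the recording of starts plays in these counts was not tested.

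Pfkm was the exception among the well-read chains. The chain starting at position 98112034 of chromosome 15 had 2874 reads in replicate 1 and 3245 in replicate 2, which was 74.3% of the 3869 spliced Pfkm reads in replicate 1 and 79.9% of the 4061 in replicate 2. The full annotated transcript ENSMUST00000051226.7, which starts at position 98108466 and has 23 exons, had 436 reads (11.3%) in replicate 1 and 385 (9.48%) in replicate 2. The partial chain lost 1 intron and kept 22 exons and the annotated start codon, which lies in its first exon. Its start was identical in both libraries, 3568 bp from the nearest GENCODE start of the gene, 120 bp upstream of annotated exon 2 and 26 bp upstream of the RefSeq start, and the bases before it in the printed stretch are not AG. TATAAA was found on neither strand of the 250 bases, where 12.4% of all 32851 RefSeq windows of this length hold it. CANNTG, which reads the same on both strands, occurred once at 177 bases before the RefSeq start, against 66.2% of all windows with at least 1 match. GGGCGG, held by 32.7% of the windows, and CATTCC, held by 12.6%, had no match on either strand. The bases G and C made up 52.8% of the stretch and a median of 52.4% over all windows. The next partial chain of Pfkm held 56 reads in replicate 1 against 45 in replicate 2. All its partial chains together held 85.3% of the gene's spliced reads in replicate 1 and 87.2% in replicate 2.

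Of the other repeated starts off every edge, those of 6 genes are given here. The creatine kinase gene Ckm had a start at position 19415636 of chromosome 7, 1083 bp upstream of an exon, with 364 reads in replicate 1 and 197 in replicate 2, which was 0.535% and 0.370% of its spliced reads. The glycogen phosphorylase gene Pygm had one at position 6385118 of chromosome 19, 567 bp upstream of exon 2, with 173 reads (4.83%) in replicate 1 and 161 (5.43%) in replicate 2. In Mybpc2 the start at position 44516029 was read 45 times in replicate 1 and 36 times in replicate 2. That of Actn3 at position 4871682 was read 25 times in replicate 1 and 27 times in replicate 2. In the titin gene Ttn the recorded starts of 1 chain lay 6 bp apart, at 76706741 in replicate 1 with 18 reads and at 76706735 in replicate 2 with 36, deep inside a long exon. None of these 5 starts reached 6% of its gene's spliced reads in either library. The unnamed gene 2310065F04Rik, picked after its values were seen, did so with 14 of 88 reads (15.9%) in replicate 1 and 6 of 94 (6.38%) in replicate 2.

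The best-read scattered starts lay in long exons or in front of an exon. Of the 79 chains with scattered starts off every edge, that of Cmya5 had the most reads, 244 in replicate 1 and 442 in replicate 2. The next was a Ttn chain read 81 times in replicate 1 from position 76709819 and 258 times in replicate 2 from position 76709484. Both positions lie upstream of exon 187 of an annotated transcript with 192 exons. The plectin gene Plec followed a similar pattern inside exon 31, 2870 bp from its edge in replicate 1 with 30 reads and 1688 bp from it in replicate 2 with 88. Igfn1, an immunoglobulin-like protein of the Z-disc, had 40 reads in replicate 1 that began 2342 bp inside exon 15 and 43 in replicate 2 that began 3678 bp inside it. Since each library records 1 start for a chain, how far the single reads of such a chain spread cannot be seen.

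Chains with repeated starts on annotated edges were ordered by the lower of their read counts in the 2 libraries, and those high in this order included chains of abundant muscle transcripts. Besides that of Hrc, given below, there were chains of Myh4 from position 67253154 (1082 reads in replicate 1, 934 in replicate 2), Atp2a1 from 126457017 (1048 in replicate 1, 875 in replicate 2) and Ckm from 19420107 (2018 in replicate 1, 868 in replicate 2). The skeletal actin gene Acta1 had 885 reads in replicate 1 and 755 in replicate 2 from position 123893470, the edge of exon 3. Pink1 had 721 of its 1661 spliced reads (43.4%) in replicate 1 and 884 of 1483 (59.6%) in replicate 2 in a chain that begins on the edge of exon 4. The Myh4, Atp2a1, Ckm and Acta1 chains each held at most 5.20% of their gene's spliced reads, so a chain with many reads was not always a large part of its gene.

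In 10 genes with at least 100 spliced reads in each library, a single partial 3' chain held over 50% of the spliced reads in both. In 4 of them the annotated start codon was in the first kept exon, in 5 it was in a lost exon and in 1 it was in a later kept exon. In 7 of the 10 only 1 intron was lost, counted against the annotated chain of the gene that gave the fewest lost introns. The complex I gene Ndufa13 had 675 of 697 reads (96.8%) in replicate 1 and 551 of 562 (98.0%) in replicate 2 in a chain that begins on the edge of exon 2. The ATP synthase gene Atp5f1 had 552 of 591 (93.4%) in replicate 1 and 572 of 602 (95.0%) in replicate 2 in a chain that begins on an annotated start of another transcript of the gene. Atp5j, another ATP synthase gene, had 576 of 764 (75.4%) in replicate 1 and 444 of 600 (74.0%) in replicate 2, likewise from an annotated start. Prkab2, a regulatory subunit of the energy-sensing kinase AMPK, had 241 of 277 (87.0%) in replicate 1 and 289 of 331 (87.3%) in replicate 2, also from an annotated start. In all 4 of these chains the annotated start codon lay inside the recorded model in both libraries.

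Among the chains of this group that lost the annotated start codon, that of Hrc had 1404 of 1580 reads (88.9%) in replicate 1 and 1071 of 1224 (87.5%) in replicate 2. That of Xirp2 had 126 of 135 (93.3%) in replicate 1 and 238 of 244 (97.5%) in replicate 2. Ndufs7 had 460 of 779 (59.1%) in replicate 1 and 339 of 587 (57.8%) in replicate 2 in a chain that keeps only the last intron. The slow troponin T gene Tnnt1 had 185 of 210 (88.1%) in replicate 1 and 821 of 907 (90.5%) in replicate 2 in a chain of 3 exons. This chain began on an annotated start of the gene in both libraries. It lost 1 intron of an annotated chain of 3 introns, while the longest annotated chain of the gene has 13. The fifth chain of this group was the only one of the 10 with scattered starts. In Cmya5, a large muscle scaffold protein, the chain started at position 93089302 of chromosome 13 in replicate 1 with 244 of 369 reads (66.1%) and at 93094138 in replicate 2 with 442 of 555 (79.6%). These places lie 4836 bp apart inside the same long exon 2. The sequences at the edges of Hrc, Xirp2 and Ndufs7 are those printed above.

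Across genes the share of spliced reads in partial 3' chains was low for most and very high for a few. In 3691 genes with at least 20 spliced reads in each library the median share was 3.81% in replicate 1 (quartiles 1.12 and 9.23%) and 3.57% in replicate 2 (quartiles 0 and 8.59%). The share was 0 in both libraries in 515 genes and over 50% in both in 63 genes. The medians followed the length and the exon number of the leading annotated isoform. Left out of this were 53 genes without spliced reads of the class Known, among them Ryr1, Ndufa13 and Atp2a1. The median was 1.08% in replicate 1 and 0.8% in replicate 2 for isoforms up to 1000 nt, and 9.38% and 8.57% for those over 5000 nt. For isoforms with over 25 exons it reached 20.6% in replicate 1 and 16.5% in replicate 2, and for those with up to 4 exons it was 0 in both. Longer isoforms offer more places at which a chain can begin, and length and exon number go together, so these 2 descriptions are not independent.

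**Figure D3:**
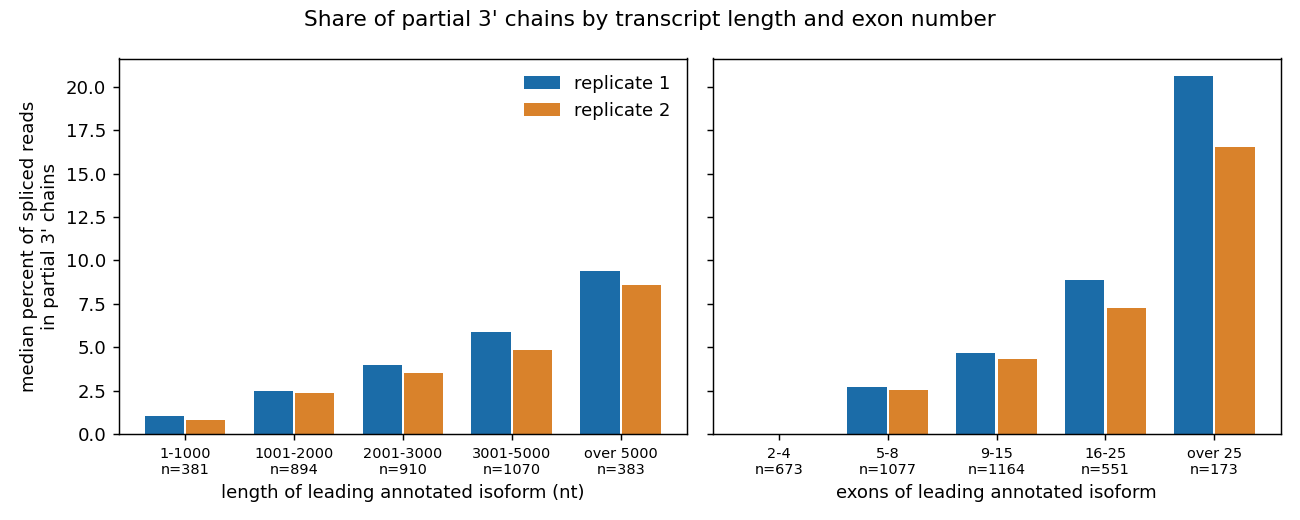
Median share of a gene's spliced reads in partial 3' chains, in percent, by the length (left, nt) and the exon number (right) of the gene's leading annotated isoform, for replicate 1 (blue) and replicate 2 (orange), with the number of genes under each bin. Medians climb to 9.38% and 8.57% over 5000 nt and to 20.6% and 16.5% over 25 exons. The 53 genes without spliced reads of the class Known are left out.

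Among the 682 genes with at least 100 spliced reads in each library and at least 5 annotated introns, those with the highest shares were Atp5f1, Xirp2, Hrc, Tnnt1, Prkab2, Cmya5, Pfkm, the filamin gene Flnc, the ryanodine receptor gene Ryr1 and Atp5j. Over all member chains of Flnc the share was 81.3% (100 of 123 reads) in replicate 1 and 87.1% (142 of 163) in replicate 2, spread over 42 chains. At the other end, Higd1a, Idh3b and Mrpl33 had 0 member reads in both libraries, of 164, 376 and 225 spliced reads in replicate 1 and 126, 328 and 167 in replicate 2. The antizyme gene Oaz1 had 4 member reads among 1400 in replicate 1 and 0 among 1130 in replicate 2. The signalling adaptor Ywhae had 1 of 469 in replicate 1 and 0 of 322 in replicate 2. Ndufb5, Mpc1, Tnnc1, Timm23 and Rab18 completed the lowest 10, with 0 to 3 member reads in each library. The bound of 5 introns applies to the longest annotated chain of a gene. The leading annotated isoform had 2 exons in Mrpl33 and 3 in Oaz1. An isoform of 2 exons can give no member, since a member must lose 1 intron and keep another.

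Genes differed in the places at which their partial chains began. A chain is placed here by the first exon that it keeps, and its recorded start may lie upstream of that exon. Myh4 had member chains beginning in 36 of the 37 possible exons in both libraries. They held 10571 of 20825 spliced reads (50.8%) in replicate 1 and 13008 of 29607 (43.9%) in replicate 2. The exon with most Myh4 starts was exon 26 in replicate 1 (1082 reads, against 934 in replicate 2), and in replicate 2 it was exon 4, with 402 reads in replicate 1 and 1278 in replicate 2. The calcium pump gene Atp2a1 also used all 21 possible start exons in both libraries, but its member reads were 3.56% of 169404 spliced reads in replicate 1 and 2.52% of 186728 in replicate 2. Exon 8 led in both, with 1048 reads in replicate 1 and 875 in replicate 2. These shares depend on the denominator: with Known and member reads only, the mean over the libraries was 100% in place of 3.04% for Atp2a1 and 72.1% in place of 47.3% for Myh4. In Mybpc2 all 26 possible exons were used, and exon 12 led with 219 reads in replicate 1 and 163 in replicate 2.

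Ryr1, the calcium release channel of the sarcoplasmic reticulum, showed the opposite layout. Its annotated chain of 106 exons began no partial chain in the 5' 50% of the introns, and all 941 reads in replicate 1 and 718 in replicate 2 lay in the 3' 50%. Exon 91 alone was the first kept exon for 390 reads in replicate 1 and 335 in replicate 2, which was 41.4% and 46.7% of them. No read of either library held this complete Ryr1 chain. The same was true of the annotated chain used for Atp2a1 and of the Ttn chain described next. On 1 annotated transcript of Ttn, the giant sarcomere protein, with 192 exons, 5 start exons were in use out of 190 in each library. Exon 187 of it was the first kept exon for 81 of 107 reads in replicate 1 and 258 of 301 in replicate 2, with recorded starts upstream of that exon. All member chains of Ttn held 115 reads in replicate 1 and 321 in replicate 2, and its longest annotated chain has 346 introns. In Ckm, by contrast, the full chain of 8 exons held 94.1% of spliced reads in replicate 1 and 95.6% in replicate 2. The start exon used most by its partial chains was exon 7, the first kept exon for 2018 of 3666 reads in replicate 1 and 868 of 1986 in replicate 2.

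**Figure D4:**
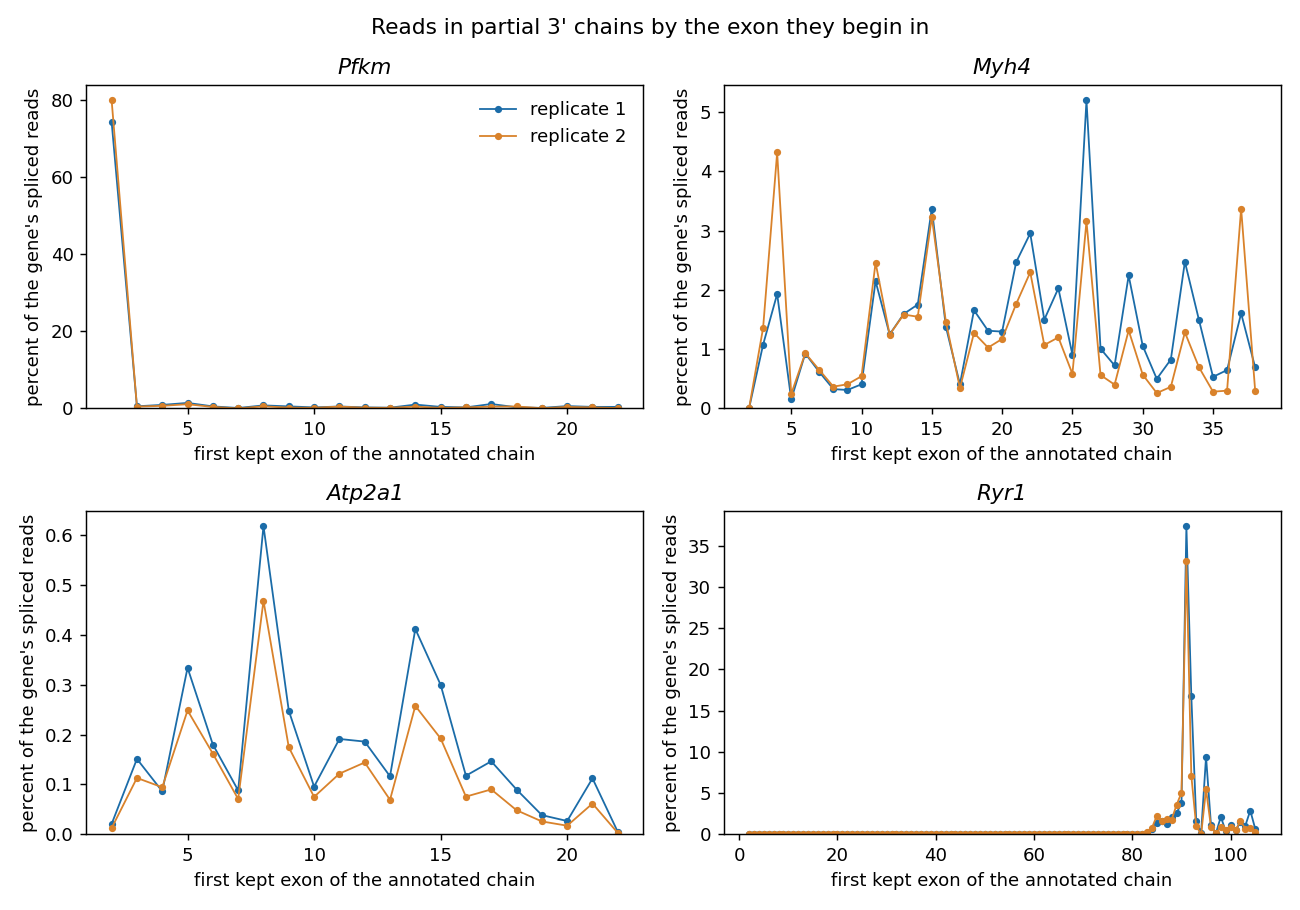
Reads in partial 3' chains by the first exon they keep, as percent of all spliced reads of the gene (vertical axes differ), for Pfkm, Myh4, Atp2a1 and Ryr1 in replicate 1 (blue) and replicate 2 (orange). Pfkm has a single peak at exon 2, Myh4 and Atp2a1 have starts along the whole chain, and those of Ryr1 lie towards the 3' end with a peak at exon 91.

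The members of gene lists with a common role differed widely in their shares. Of 20 giant and very long muscle transcripts, all 19 with spliced reads had a member chain, and the list's pooled share was 50.5% in replicate 1 and 41.7% in replicate 2. Myh4 gave the most member reads, 10571 in replicate 1 and 13008 in replicate 2. It thus weighed most in the pooled share of this list. The median over its 12 tested genes was 41.7% in replicate 1 and 45.5% in replicate 2, beside 3.81% and 3.57% over all genes tested. In it the linker gene Plec had 47 of 53 reads (88.7%) in replicate 1 and 106 of 114 (93.0%) in replicate 2, while Neb, the ruler of the thin filament, had 71 of 272 (26.1%) in replicate 1 and 50 of 289 (17.3%) in replicate 2. Ahnak, which is encoded mostly by 1 very long exon, had 1 of 53 in replicate 1 and 1 of 26 in replicate 2. The 14 fast fibre genes pooled to 7.96% in replicate 1 and 8.45% in replicate 2, with a median of 8.16% and 8.27%. Within that list the troponin C gene Tnnc2 had 1.43% and 1.45%, and the troponin T gene Tnnt3 had 37.8% in replicate 1 and 31.8% in replicate 2. With Known and member reads only as the denominator the mean share of Tnnt3 was 98.8%, against 34.8% over all its spliced reads. The slow fibre genes pooled to 20.1% in replicate 1 and 19.9% in replicate 2 (medians 10.9 and 8.64%), the glycolytic genes to 14.1% and 16.1% (medians 12.9 and 9.31%), and the nuclear respiratory genes to 12.9% and 10.5% (medians 3.11 and 2.51%). Tnnt1 gave the most member reads of the slow list, 186 in replicate 1 and 846 in replicate 2. Pfkm did so for the glycolytic list, with 3301 and 3542, and Atp5b for the respiratory list, with 1138 and 997. In the last list Cox8b, Ndufb10 and Uqcrfs1 had no member read in either library, against 38.2% in replicate 1 and 39.0% in replicate 2 for the ATP synthase gene Atp5b.

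Genes known for a start site within the gene had a median share of 2.99% in replicate 1 and 5.26% in replicate 2 over 9 tested genes. Of the 14 on that list 13 had spliced reads and a member chain, and the pooled share was 4.78% in replicate 1 and 5.93% in replicate 2. Myl1, whose inner start site makes a shorter myosin light chain, had 853 of 9380 reads (9.09%) in replicate 1 and 509 of 6231 (8.17%) in replicate 2. Gsn had 69 of 2200 (3.14%) in replicate 1 and 81 of 1541 (5.26%) in replicate 2, and Ank1 had 11 of 368 (2.99%) and 19 of 298 (6.38%). The kinase gene Speg reached 25 of 35 (71.4%) in replicate 1 and 37 of 42 (88.1%) in replicate 2. Where the inner start of such a gene is annotated with its whole chain, its reads count as Known and not as partial, so these shares do not measure the use of inner starts.

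Between the libraries few genes were called for a different share. Fisher's exact test on the reads of each gene, adjusted by Benjamini-Hochberg over all 3691 genes, called 20 genes, which is 0.542% of those tested, 15 with the higher share in replicate 1 and 5 with the higher share in replicate 2. At an unadjusted p under 0.05 there were 174 of the 3691. A gene that was not called is not shown to have equal shares, since 20 spliced reads in each library were enough to be tested. The share of Ryr1 was 90.4% of 1043 reads in replicate 1 and 70.9% of 1012 in replicate 2 (Fisher's exact test, adjusted p = 6.00e-27). That of Myh4, given above, had an adjusted p of 2.10e-48, those of Atp2a1 and Ckm differed by 1.04 and 1.66 percentage points with adjusted p of 1.52e-69 and 5.59e-40, and that of Mybpc2 by 5.78 points with 1.79e-20. The remaining 10 with the higher share in replicate 1 were Actn3, Arrdc2, Gpam, Gpd1, H2-Ke6, Myh7, Ndufa4, Ptp4a3, Tecr and Tnnt3. The share of Pink1, the kinase that marks damaged mitochondria, was 48.5% of 1661 reads in replicate 1 and 64.1% of 1483 in replicate 2 (adjusted p = 8.83e-16). That of Ttn was 35.4% in replicate 1 and 52.9% in replicate 2 (adjusted p = 0.000173), and that of the zinc finger gene Zfp106 was 28.3% in replicate 1 and 49.2% in replicate 2 (adjusted p = 0.000216). The splicing factor Hnrnpa2b1, with 43.7% in replicate 1 and 57.8% in replicate 2, and the filament protein Nexn, with 4.71% and 12.4%, had adjusted p of 0.0311 and 0.0318. Both lost the call with a minimum of 5 spliced reads (adjusted p of 0.0584 and 0.0596) and with only suffixes of every annotated chain (0.0544 and 0.336). With Known and member reads only as the denominator the calls of Ryr1, Atp2a1, Ttn and Nexn were lost, Nexn with a difference of -22.7 percentage points in place of -7.67 (adjusted p = 0.192). The list of fast fibre genes held 5 of the called genes among 14 tested, and the list of giant transcripts held 4 among 12. The glycolytic list held 0 of 15, and the slow, respiratory and inner start lists 1 each, of 11, 20 and 9. Genes with more reads are called at smaller differences, as Atp2a1 was with 169404 spliced reads in replicate 1 and 186728 in replicate 2. These counts therefore depend on depth as well. The lists overlap, so that Myh4 counts among both the fast and the giant genes, Myh7 among the slow and the giant, and Ttn among the giant and the inner start genes.

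**Figure D5:**
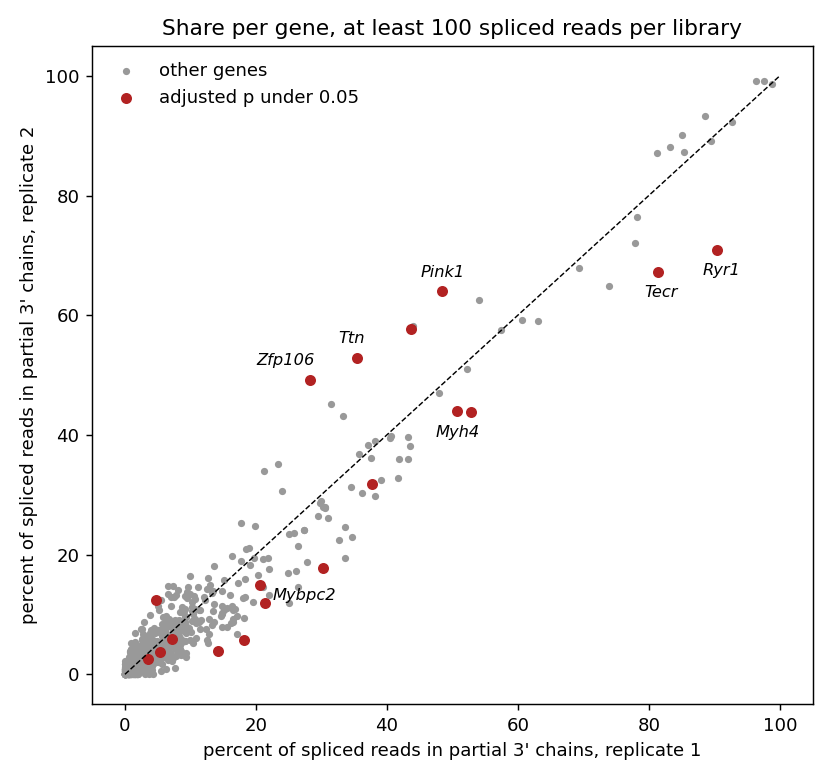
Share of each gene's spliced reads in partial 3' chains, in percent, in replicate 1 (horizontal) and replicate 2 (vertical), for genes with at least 100 spliced reads in each library; red points have an adjusted p under 0.05 and the dashed line marks equal shares. Ryr1, Tecr, Myh4 and Mybpc2 lie below the line, and Pink1, Ttn and Zfp106 above it.

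The reads of single chains were compared as well. An exact binomial test against the effective library sizes, adjusted over all 10433 spliced chains with at least 10 reads, called 223 of 1481 member chains (15.1%), against 10.8% of all spliced chains tested. Of the members 62 (4.19%) were higher in replicate 1, where the share over all chains was 4.56%, and 161 (10.9%) were higher in replicate 2, where it was 6.21%. The log2 ratio (replicate 1 over replicate 2) had a median of -0.22 over the members and 0.00 over all chains. Chains of 1 gene share its reads, and Myh1 and Myh4 had 38 and 36 member chains over both libraries. The counts of called chains and the median thus treat as separate what is partly the same. A common dispersion of 0.0889 was estimated over the chains from the same 2 libraries taken as 1 group. With it, edgeR's exact test called 11 of the 1481 members (0.743%), against 33 of all 10433 spliced chains (0.316%). Of these members 1 was higher in replicate 1 and 10 were higher in replicate 2, where the shares over all chains were 0.0288% and 0.288%. The difference under test is part of that dispersion, so few calls were to be had, and a lost call does not show that a difference is absent. The Tnnt1 chain was read 185 times among the gene's 210 spliced reads in replicate 1 and 821 times among 907 in replicate 2. A chain of the fast myosin gene Myh1 beginning at position 67201842 was read 85 times among 1502 in replicate 1 and 595 times among 7057 in replicate 2. The spliced reads of both genes thus differed between the libraries along with the chain. In bulk RNA fewer fibres of a type and less RNA per fibre cannot be told apart. The Myh4 chains that begin in exons 4 and 37 had 402 and 334 reads in replicate 1, of 20825 for the gene, against 1278 and 998 in replicate 2, of 29607. All 4 of these chains were higher in replicate 2 in the binomial test, and of them the Tnnt1 chain and both Myh4 chains missed the threshold in edgeR's exact test with the common dispersion. Higher in replicate 1 was the Ckm chain that keeps only the last intron, with 2018 reads there and 868 in replicate 2, a scaled ratio of 1.97. A chain of Tecr, a reductase of fatty acid elongation, had 411 reads in replicate 1 against 142 in replicate 2, a scaled ratio of 2.45. A chain of Ndufa4, known from the respiratory chain, had 797 reads in replicate 1 against 382 in replicate 2. None of these 3 chains passed edgeR's exact test with the common dispersion. Reads of near-identical genes, such as the neighbouring myosin heavy chains, may be split in the deposited counts.

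The repeat of starts was also set beside that of chains that lack both ends. Among chains seen in both libraries, 5620 of 6656 members (84.4%) and 28 of 43 inner chains (65.1%) had starts within 20 bp of each other (2-sided Fisher's exact test, p = 0.00217). Without chains near an annotated start the shares were 4419 of 5109 (86.5%) and 19 of 32 (59.4%; Fisher's exact test, p = 0.000148). With 1 chain per gene they were 2222 of 2776 (80.0%) and 16 of 24 (66.7%), and the difference no longer passed the test (Fisher's exact test, p = 0.122). Chains of 1 gene share its reads, so the first 2 of these p-values treat as separate what is partly the same. As described, 98.8% of the identical starts of members lay on annotated edges. Of the 5620 repeated members, 5300 (94.3%) had a start on an annotated edge in both libraries. The same share is not given here for the inner chains. The test therefore cannot tell a repeat of RNA starts from the placing of recorded starts on edges.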

How the data were processed

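Long reads were measured in 2 libraries of 1 group, named biological replicates 1 and 2 in the labels. Each library has a deposited table of raw counts, the whole number of reads given to every transcript model, and a model without a read is not listed in it. The deposited numbers of exons, lengths and 1-based positions on mm10 are further values of each model, and the models combine GENCODE M21 with models that TALON added, per the file headers and the accompanying text. No source used here names the aligner, the filters, the rule for model starts or the versions.

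Members were found by comparing intron chains within a gene, and chains were matched between libraries by gene and intron chain. The members, gene lists and tests were chosen with earlier results of these data known, and the bases before starts, the use of acceptors and the chains holding over 50% of a gene's reads were chosen for display after values were seen. Genes were named by a fixed rule: the 20 with most member reads, the 10 highest and lowest shares, the 10 most-read repeated and scattered chains, the 5 smallest p in each direction, and the lists. Some items that this rule names are not reported here. No quasi-likelihood fit is possible with 1 library to a side, so the tests were Fisher's exact test per gene (at least 20 spliced reads in each library) and the exact binomial test per chain (at least 10 reads over both) against TMM library sizes from edgeR 4.0.16, with DESeq2 1.42.0 size factors as an alternative, all with Benjamini-Hochberg adjustment in scipy 1.17.1. Both were tested on simulated data. Intervals are Wilson 95% intervals. Starts were called repeated within 20 bp. Sequences came from GENCODE M21 transcripts and from RefSeq promoter windows on GRCm38.p6. The tables hold 1117891 reads of annotated mouse genes in replicate 1 and 975696 in replicate 2, which limits the precision of single chains, most of which have 1 read.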

Additional observations from a re-analysis of the deposited data

How the results depend on the processing

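The share of spliced reads in partial 3' chains, 8.22%, lay between 8.01 and 8.44% with either library left out. It was 9.24% with the deposited subtype Suffix in place of the rule, 7.71% over all reads of annotated genes and 7.20% without Myh4. The share of shared chains with repeated starts, 84.4%, was 82.0%, 86.5% and 89.5% with windows of 5, 50 and 100 bp and 86.5% without starts near an annotated start. Counting only starts on no annotated edge in both libraries, an alternative chosen after seeing the data, it was 51.2%, and there windows of 50 and 100 bp gave 61.1% and 67.9%. Starts on an annotated start made up 19.5% of members, 19.1 to 19.8% with either library left out and 21.1% among chains with at least 5 reads. The 223 called chains were 133 with no filter on low counts and 11 with edgeR's exact test and a common dispersion, which called 33 of all 10433 spliced chains (0.316%). That dispersion came from the same 2 libraries and holds the difference under test. The difference in repeated starts between partial 3' chains and inner chains, 19.3 percentage points, was 13.4 with 1 chain per gene and no longer passed Fisher's exact test (p = 0.122). Without chains near an annotated start it was 27.1 percentage points (Fisher's exact test, p = 0.000148). No direction was reversed under any alternative run. With Known and member reads only as the denominator, Atp2a1 and Ryr1 had no other reads left, and their calls and those of Ttn and Nexn (adjusted p = 0.192) were lost. That denominator moved the mean share of Aldoa to 58.1% against 7.95%.

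No paired analysis was possible because there is 1 group. The planned comparison with spliced spike-ins was not run, since the 30211 spike-in reads of replicate 1 and 7609 of replicate 2 all belong to models of 1 exon. Depth limits single chains: most have 1 read, and 27.5 to 31.3% of those recurred in the other library. With 1 library to a side, no test here knows the spread between animals.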
